A study of Mus musculus with 4 samples.

Results

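Adventitial-type fibroblasts are the connective tissue cells that lie around vessels and beneath the epicardial surface, and here they are nuclei of mouse hearts chosen by their own RNA counts. A barcode was counted as a fibroblast when it had at least 300 genes, at most 20% mitochondrial UMIs (unique molecular identifiers, 1 per captured RNA molecule), under 1% of UMIs from Ttn and Ryr2, at least 5 UMIs of Abca8a, Pdgfra, Dcn and Col1a2 together, and at most 2 of Flt1, Ptprb and Pecam1. It was counted as adventitial-type when it also had at most 4 UMIs of 6 activation genes (Postn, Col12a1, Col11a1, Cthrc1, Comp, Ltbp2), at least 2 UMIs of 5 markers, and more of these than of 4 interstitial genes (Col6a6, Gfra1, Rgs17, Kcnip1). The markers are Pi16 (ENSMUSG00000024011), Scara5 (ENSMUSG00000022032), Efhd1 (ENSMUSG00000026255), Gfpt2 (ENSMUSG00000020363) and Plcxd3 (ENSMUSG00000049148). Of 19806 barcodes in 4 libraries, 5164 were fibroblasts and 2295 of those were adventitial-type. The same rule with the 2 gene sets exchanged gave 1145 interstitial fibroblasts, and 705 barcodes with more than 4 activation UMIs are called activated fibroblasts.

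The nuclei came from the ventricles of C57BL/6J wild-type mice, male and female, 8 weeks old at the start. The running infarct library pooled 4 hearts of mice that had a voluntary wheel for 16 weeks, then an infarct by surgery, and were killed 2 weeks later. The sedentary infarct library pooled 4 hearts of mice with the same surgery and no wheel, the running library 2 hearts after 16 weeks with a wheel, and the sedentary library 2 hearts of mice with neither. Each group is 1 library from 1 well, so there was no replicate and no test. Hearts within a pool cannot be told apart, except by Y-linked RNA where a pool of 2 holds both sexes. Intervals below are exact 95% intervals and cover counting error only. "Higher" and "lower" are used between libraries for a ratio of at least 1.5 in genes with at least 100 UMIs over both, and levels are UMIs per 1000000 of the class total without mitochondrially encoded genes (CPM).

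Adventitial fibroblasts of mouse organs are marked by Pi16 and Dpp4 and are held to be a reservoir from which more specialised fibroblasts can arise. They are known for a matrix rich in microfibrils and hyaluronan, a long sugar polymer of the pericellular space. Hyaluronan synthases such as Has2 build it from UDP-glucuronic acid, made by Ugdh, and UDP-N-acetylglucosamine, made by the hexosamine pathway that Gfpt2 opens and Uap1 closes. After an infarct, cardiac fibroblasts switch on genes of contraction, matrix and matrix cross-linking, under TGF-beta among other signals, and lose part of their resting programme.

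The 4 libraries held 4922 (running infarct), 3243 (sedentary infarct), 6253 (running) and 5388 (sedentary) barcodes with 29916572, 26170995, 37533722 and 32899707 UMIs in the same order. The adventitial-type barcodes numbered 254 in the running infarct, 318 in the sedentary infarct, 891 in the running and 832 in the sedentary library. Their median UMI count was 4429, 4332.5, 4204 and 3834.5 in that order, so depth differed little between libraries. Mitochondrial UMIs made up 3.82% of their UMIs in the running infarct, 4.41% in the sedentary infarct, 10.1% in the running and 5.99% in the sedentary library. Y-positive barcodes, in which 4 Y-linked genes gave 2 UMIs or more, made up 26.0, 18.9, 35.6 and 34.9% of them in that order, and Y-negative ones with 0 such UMIs 61.4, 72.0, 47.4 and 47.2%. Between 2 and 12 barcode sequences occurred in both libraries of a pair, and 0 of these were adventitial-type in both.

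The 5 markers that chose the barcodes are described without a test. Pi16, a secreted peptidase inhibitor, stood at 826 CPM in the running infarct, 771 in the sedentary infarct, 942 in the running and 849 in the sedentary library. Scara5, a ferritin receptor, stood at 278, 281, 578 and 564 CPM in that order, and Gfpt2, the rate-limiting enzyme of the hexosamine pathway, at 754, 504, 891 and 851 CPM. Plcxd3, a phospholipase C-like protein, had 176, 129, 288 and 272 CPM, and Efhd1, a mitochondrial calcium-binding protein, 71.7, 38.5, 54.8 and 65.2 CPM. Scara5, Plcxd3, Gfpt2 and Pi16 thus each had lower levels in both infarct libraries than in either library without infarct, while Efhd1 did not. The range was narrow for Pi16, from 771 to 942 CPM. Without the barcodes with mesothelial markers described below, Pi16 stood at 979, 880, 992 and 888 CPM. Its running infarct level then lay above the sedentary one, so for Pi16 the order by infarct did not hold. A UMI of Pi16 was found in 74.8, 80.2, 80.8 and 81.1% of all adventitial-type barcodes in the same order, and in 17.9, 22.8, 19.9 and 25.5% of endothelial barcodes, which should lack it. The endothelial barcodes had median UMI counts of 2787.5, 2981.5, 3154.5 and 2880. Scara5 had a UMI in 43.7% of the running infarct, 44.3% of the sedentary infarct, 72.3% of the running and 71.4% of the sedentary barcodes. In endothelial barcodes that share was 2.58, 4.07, 5.99 and 4.17%. Interstitial fibroblasts came closer, with Pi16 in 30.0, 43.0, 42.7 and 43.1% and Scara5 in 25.0, 29.7, 46.7 and 42.6% of barcodes. Scara5 was thus about as frequent in interstitial barcodes of the running and sedentary libraries as in adventitial-type barcodes of the infarct libraries. As UMIs of both genes helped to choose the barcodes, the gaps to endothelial and interstitial barcodes follow from the rule. After thinning to 1000 UMIs per barcode, Pi16 was found in 44.4, 42.4, 49.5 and 49.1% and Scara5 in 15.2, 21.2, 39.6 and 38.3% of the adventitial-type barcodes deep enough, which had been chosen at full depth.

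The rule drew its edge through a continuous range of marker counts. The median barcode had 6, 5, 8 and 7 marker UMIs in the running infarct, sedentary infarct, running and sedentary libraries, and 42, 57, 81 and 76 barcodes sat at the minimum of 2. A further 53, 55, 80 and 48 fibroblasts stood just outside it. Pi16 and Scara5 were found together in 34.3, 36.5, 58.9 and 57.7% of the barcodes, and neither in 15.7, 11.9, 5.84 and 5.17%. At the activation limit, 19, 25, 15 and 10 barcodes had exactly 4 activation UMIs, and 20, 19, 7 and 4 that met every other clause were left out with 5. Over the pooled libraries 256 barcodes had 2 marker UMIs, 693 had 3 to 5, 602 had 6 to 10 and 744 had more than 10, with median depths of 3326, 3677, 4126 and 4721 UMIs. As a description, Has2 stood at 19.0, 27.6, 43.3 and 116 CPM over these classes. Ackr3, a scavenger receptor for the chemokine CXCL12, stood at 106, 167, 215 and 364 CPM. Mfap5, a glycoprotein of microfibrils, stood at 285, 348, 397 and 601 CPM, while the summed genes of an interstitial and basement membrane list stayed between 7261 and 8514 CPM.

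Most of these barcodes had fewer than 3 UMIs of 9 mesothelial markers, but a minority carried more of these markers of mesothelium, the epithelium that covers the heart. At least 3 UMIs of 9 mesothelial markers were found in 31 running infarct barcodes (12.2%, 8.45 to 16.9%), 27 sedentary infarct (8.49%, 5.67 to 12.1%), 33 running (3.70%, 2.56 to 5.16%) and 30 sedentary barcodes (3.61%, 2.45 to 5.11%). The share was thus larger in the infarct libraries, and these barcodes were deeper, with median UMI counts of 7688, 6969, 7346 and 5348.5 against 4165, 4158, 4162 and 3770.5 in the others. Muc16, the mucin of the mesothelial surface, stood in them at 1847, 2045, 2158 and 2383 CPM, against 12.5, 4.73, 3.71 and 4.17 CPM in the other adventitial-type barcodes. Muc16 is among the 9 markers that picked these barcodes, so its gap follows from the choice. Pi16 was low in them, at 181, 114, 194 and 125 CPM against 979, 880, 992 and 888 CPM, and so was the fibroblast receptor Pdgfra, at 181, 109, 71.5 and 101 against 555, 598, 694 and 737 CPM. Gfpt2 was nearly as high as in the rest, at 661, 432, 728 and 619 against 776, 516, 902 and 863 CPM. Dpp4, a surface peptidase, and Efemp1, an extracellular glycoprotein, were higher in them than in the rest, with Dpp4 at 727, 783, 1312 and 858 against 111, 78.0, 156 and 107 CPM. These barcodes therefore go against the label, and results that rest on them are given with and without them.

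**Figure D1:**
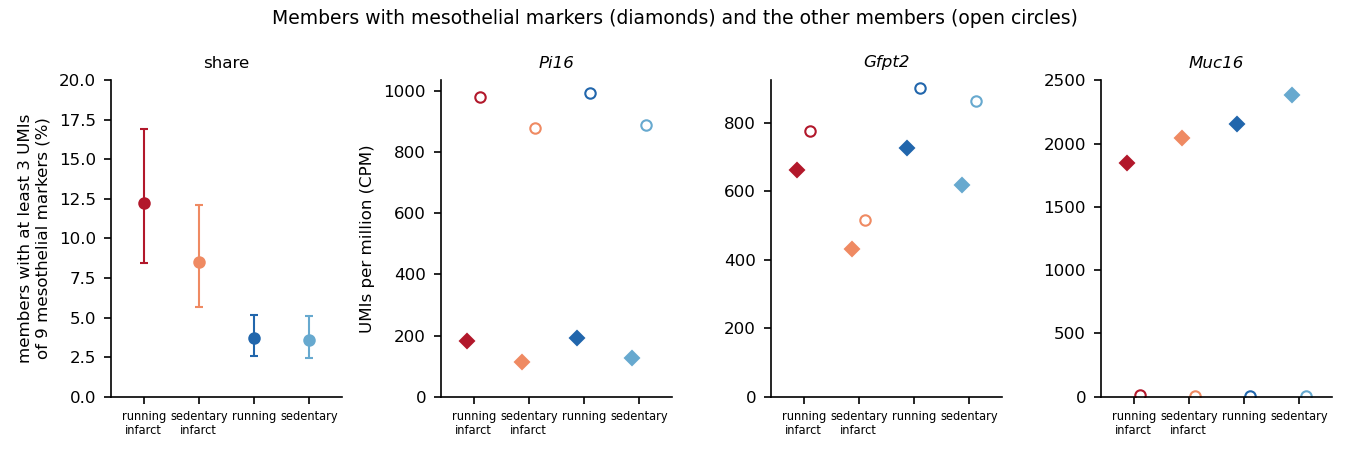
The left panel plots, for each library, the percentage of adventitial-type barcodes with at least 3 UMIs of 9 mesothelial markers, with exact 95% intervals. The other panels plot Pi16, Gfpt2 and Muc16 in UMIs per 1000000 (CPM), with diamonds for those barcodes and open circles for the other adventitial-type barcodes. The share was 12.2% in the running infarct, 8.49% in the sedentary infarct, 3.70% in the running and 3.61% in the sedentary library, and Gfpt2 lay close in the 2 kinds while Pi16 and Muc16 lay far apart. Muc16 is among the 9 markers that picked the barcodes, so its gap follows from the choice.

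Markers of other cell types were present, with those of cardiomyocytes at the largest sums. Summed over 10 genes, the cardiomyocyte markers stood at 1616 CPM in the running infarct, 2277 in the sedentary infarct, 2471 in the running and 2550 in the sedentary library, and at least 5 of their UMIs were found in 61.8, 78.3, 85.0 and 85.9% of the barcodes. Schwann cell markers summed to 826, 782, 1088 and 1086 CPM, and markers of lymphatic endothelium to 51.5, 71.7, 161 and 155 CPM, so the lymphatic sum was lower in both infarct libraries. Summed over 9 genes, the mesothelial markers stood at 1001, 752, 406 and 316 CPM in the running infarct, sedentary infarct, running and sedentary libraries, with 0 of the 9 at 0 in any of them. Macrophage markers summed to 922, 704, 669 and 724 CPM, smooth muscle markers to 288, 482, 310 and 263 CPM and endothelial markers to 339, 284, 391 and 384 CPM. Cycling markers summed to 86.9, 75.0, 38.8 and 47.8 CPM. The mesothelial and the cycling sums were at least 1.5 times as high in each infarct library as in each library without infarct, and the part of the cycling, cardiomyocyte and lymphatic markers in the results below was not tested.

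Adventitial-type barcodes made up a smaller part of the fibroblasts after infarct under the full rule, and the shares lay close together once its activation clause was left out. They were 29.7% of fibroblasts (26.7 to 32.9%) in the running infarct library, 31.4% (28.5 to 34.3%) in the sedentary infarct, 51.0% (48.7 to 53.4%) in the running and 53.7% (51.2 to 56.2%) in the sedentary library. Activated fibroblasts were 35.0, 31.0, 3.21 and 2.32% in the same order. Among fibroblasts with at most 4 activation UMIs the adventitial-type share was 45.8, 45.4, 52.7 and 55.0%, and with no activation clause at all it was 49.3, 51.4, 53.8 and 55.4% of all fibroblasts. The ratio of the running infarct to the running share was 0.583 (0.521 to 0.652) under the full rule, 0.868 (0.785 to 0.961) among fibroblasts that were not activated and 0.916 with no activation clause. The sedentary infarct to sedentary ratio was 0.584 (0.528 to 0.647), 0.827 (0.753 to 0.907) and 0.927 in the same order. Of the activated barcodes themselves, 55.9, 64.6, 87.5 and 75.0% met the marker clause. Of the fibroblasts, running and sedentary mice had similar shares, with ratios of 0.948 (0.827 to 1.09) between the infarct libraries and 0.951 (0.891 to 1.01) between the libraries without infarct. As a share of all barcodes kept, whatever their type, the adventitial-type ones were 5.18% in the running infarct and 9.92% in the sedentary infarct library, which is 0.522 times as many (0.446 to 0.612). Without infarct they were 14.5% with running and 15.6% without, a ratio of 0.933 (0.855 to 1.02). At most 5% mitochondrial UMIs left 52 of 145 fibroblasts adventitial-type in the running library (35.9%), against 51.6% in the sedentary library.

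**Figure D2:**
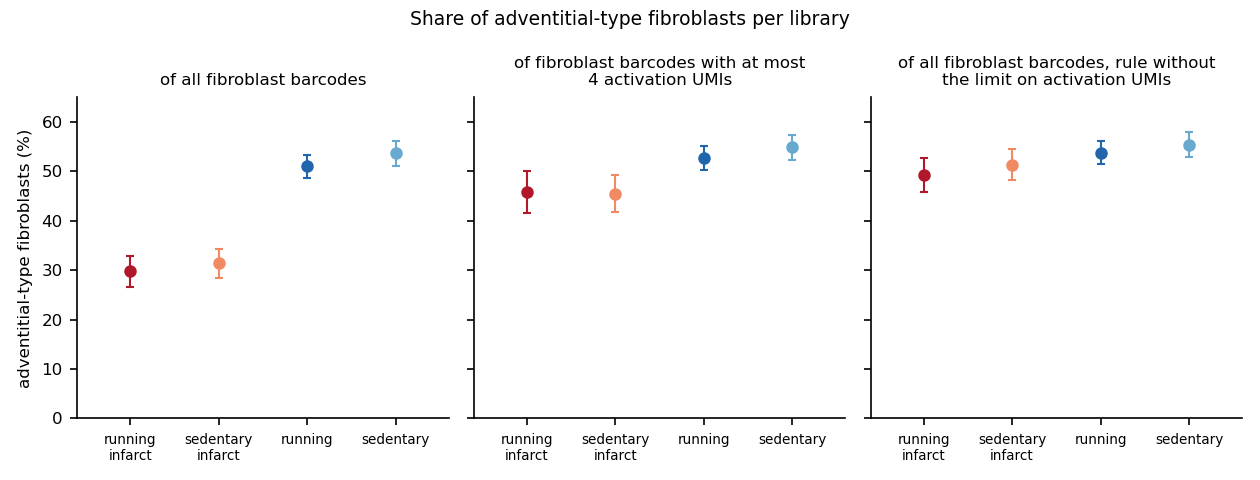
Each panel plots the percentage of adventitial-type barcodes per library with exact 95% intervals: of all fibroblasts, of fibroblasts with at most 4 activation UMIs, and of all fibroblasts when the rule has no activation clause. The infarct libraries lie at 29.7 and 31.4% on the left and at 49.3 and 51.4% on the right, where the other libraries lie at 53.8 and 55.4%.

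Set against interstitial fibroblasts of the same library, the adventitial-type barcodes had more Uap1, Mfap5, Cd55, Axl and Ackr3 RNA in all 4 libraries. The rule separated the classes by marker counts of these same nuclei, so these values are a description. Of the genes measured, 7.72% in the running infarct, 5.26% in the sedentary infarct, 5.14% in the running and 4.91% in the sedentary library were at least 1.5-fold higher, and 4.79, 3.35, 2.81 and 2.79% at least 1.5-fold lower. Without the mesothelial-marker barcodes these percentages were 6.81, 4.69, 4.23 and 4.34% and 5.30, 3.67, 2.94 and 3.08%. Of a list of 30 adventitial and universal fibroblast genes outside the rule, 16 of 17 measured, 12 of 18, 20 of 24 and 18 of 23 were higher in the same order and 0 were lower. Without the mesothelial-marker barcodes 13 of 16, 9 of 17, 19 of 23 and 18 of 23 were higher, and 1 was lower in the sedentary infarct library. Of 16 hyaluronan and hexosamine genes outside the rule, 4 of 5 measured, 1 of 6, 6 of 12 and 6 of 12 were higher in the running infarct, sedentary infarct, running and sedentary libraries, and 0 were lower. Of 21 elastic fibre and crosslinking genes, 4 of 14, 3 of 14, 6 of 17 and 5 of 17 were higher in that order, and 1 was lower in the running infarct library. Uap1 had 316 CPM in running infarct adventitial-type barcodes against 70 in interstitial ones, and 253 against 99, 325 against 112 and 307 against 110 CPM in the sedentary infarct, running and sedentary libraries. Its ratio was 4.53 (2.97 to 7.24), 2.56 (1.98 to 3.35), 2.92 (2.51 to 3.40) and 2.80 (2.37 to 3.31). Has2 had 52.3 against 9, 33.8 against 20, 66.0 against 3 and 81.0 against 11 CPM in those libraries, and Ugdh 226 against 58, 113 against 88, 181 against 64 and 138 against 60 CPM. Has2 was higher in the running and sedentary libraries, while the infarct libraries held only 65 and 64 of its UMIs over both classes, too few for a call. Ugdh was higher in 3 libraries, while its sedentary infarct ratio was 1.29 (0.956 to 1.75). Activated fibroblasts came close to or above the adventitial-type level, with the hyaluronan and hexosamine list at 1862, 1425, 2320 and 2777 CPM against 1716, 1404, 1466 and 1540 CPM in adventitial-type barcodes.

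Among structural and surface genes, Mfap5 had 504 against 236, 500 against 279, 458 against 202 and 404 against 141 CPM in the running infarct, sedentary infarct, running and sedentary libraries. Cd55, which speeds the decay of complement convertases on the cell surface, had 200 against 85, 197 against 116, 260 against 107 and 260 against 110 CPM. Axl, a receptor tyrosine kinase for Gas6, had 441 against 251, 518 against 304, 660 against 345 and 632 against 324 CPM. Each of these 3 genes was higher in adventitial-type than in interstitial fibroblasts of every library, also without the mesothelial-marker barcodes. Activated fibroblasts had more Mfap5 than either, at 578, 631, 768 and 907 CPM. Ackr3 had 190 against 100, 154 against 35, 273 against 80 and 286 against 83 CPM. The adhesion molecule Sdk1 was 1.86, 2.05, 2.92 and 3.01 times as high, and Sema3c, a secreted guidance cue, 1.89, 1.79, 3.24 and 2.54 times. Without the mesothelial-marker barcodes Sema3c stood at ratios of 1.12 and 1.32 in the running infarct and sedentary infarct libraries, and Dpp4 turned lower there, by 0.27 and 0.57 on the log2 scale. The interstitial side held Spon1, an extracellular matrix protein, at 246 against 463, 185 against 304, 203 against 421 and 248 against 458 CPM. Bmper, which binds bone morphogenetic proteins, stood at 274 against 436, 301 against 513, 380 against 652 and 414 against 724 CPM. Hsd11b1, which regenerates active glucocorticoid, stood at 28 against 61, 45 against 143, 65 against 225 and 71 against 171 CPM. Spon1 and Bmper were lower in adventitial-type fibroblasts of each library, and Hsd11b1 in 3, with 53 UMIs over both classes in the running infarct library. Leaving out the mesothelial-marker barcodes put Bmper in the running infarct library at 0.711 (0.581 to 0.874) and Spon1 in the sedentary infarct library at 0.674 (0.560 to 0.811), both short of 1.5-fold.

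**Figure D3:**
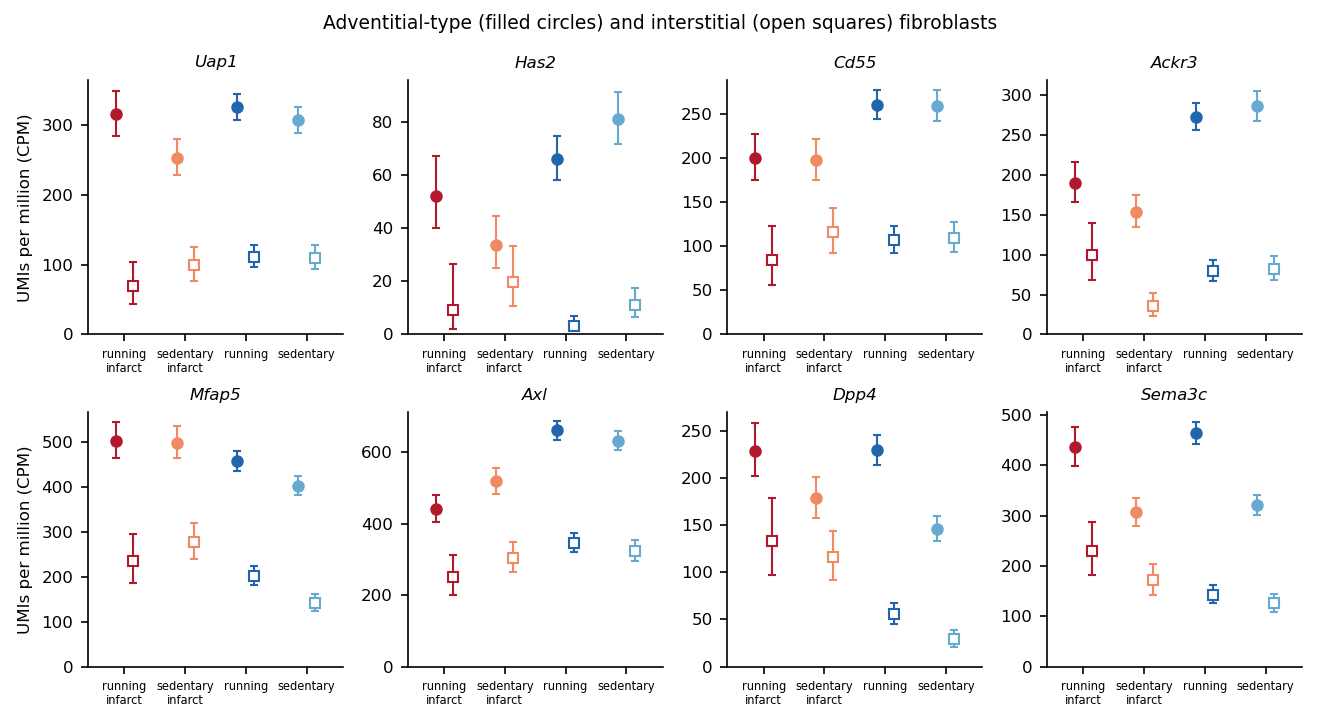
Levels of Uap1, Has2, Cd55, Ackr3, Mfap5, Axl, Dpp4 and Sema3c in UMIs per 1000000 (CPM) with exact 95% Poisson intervals, 1 panel per gene. Filled circles are adventitial-type and open squares interstitial fibroblasts of the same library, and the circle lies above the square in every panel and library, for example at 316 and 70 CPM for Uap1 in the running infarct library.

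After infarct, adventitial-type barcodes that stayed under the activation limit still had more RNA of other activation genes, in running and in sedentary mice. In running infarct against running, 5.91% of 8067 genes were higher and 7.26% lower, and in sedentary infarct against sedentary, 4.45% of 7895 genes were higher and 5.57% lower. Without the mesothelial-marker barcodes the percentages were 4.77 and 6.83% in running and 3.64 and 5.64% in sedentary mice. Of 28 activation genes outside the rule, 14 of the 19 measured were higher and 1 lower in running infarct against running, with a median log2 ratio of 1.26. In sedentary infarct against sedentary, 13 of 18 were higher and 0 lower, with a median of 1.03. The medians over all genes measured were -0.04 and -0.01. Summed, the list stood at 7985, 7485, 4340 and 4251 CPM in adventitial-type barcodes of the running infarct, sedentary infarct, running and sedentary libraries, and at 7802, 7049, 4771 and 4527 CPM in interstitial ones. Activated fibroblasts had 16468, 15142, 9914 and 11107 CPM. In adventitial-type barcodes with 0 UMIs of the 6 activation genes of the rule, 88 against 702 for running and 115 against 674 for sedentary mice, 9 of 14 were higher and 1 lower, and 8 of 14 were higher, with medians of 0.93 and 0.70. With at most 5% mitochondrial UMIs the running median was 0.61.

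Meox1, a homeobox factor tied to fibroblast activation, stood at 74.3 and 78.4 CPM in the running infarct and sedentary infarct libraries and at 18.4 and 21.3 CPM in the running and sedentary ones. It was 4.03-fold higher (2.91 to 5.60) with infarct in running and 3.68-fold (2.71 to 5.02) in sedentary mice, although with at most 5% mitochondrial UMIs the running log2 ratio was 0.45. Mfap4, a microfibril-associated protein, stood at 123, 110, 38.2 and 28.9 CPM in the order running infarct, sedentary infarct, running, sedentary, which is 3.22-fold (2.54 to 4.09) and 3.81-fold (2.94 to 4.96) higher. For both genes the infarct libraries lay together and far above the other pair. Nox4, an NADPH oxidase, stood at 555, 470, 235 and 219 CPM, with ratios of 2.36 and 2.14. Itgbl1, a secreted integrin beta-like protein, stood at 1206, 998, 503 and 445 CPM, with ratios of 2.40 and 2.24. Kif26b, a kinesin family member, stood at 79.3, 83.1, 9.89 and 8.83 CPM and was 8.02-fold (5.43 to 12.1) and 9.41-fold (6.24 to 14.6) higher, the running ratio being 15.2 without the mesothelial-marker barcodes. In interstitial fibroblasts Nox4 was 2.95-fold and 2.65-fold and Itgbl1 1.68-fold and 2.00-fold higher, so these differences were found in both classes. Ccn2, a matricellular target of TGF-beta, stood at 143, 137, 49.7 and 41.4 CPM, with ratios of 2.89 (2.33 to 3.57) and 3.30 (2.64 to 4.13). In running mice its log2 ratio was 0.18 with at most 5% mitochondrial UMIs and 0.54 in Y-positive barcodes. Smad6 and Smad7, the inhibitory factors of the BMP and TGF-beta pathways, were also higher in both, with Smad6 at 123, 73, 40.9 and 35 CPM and Smad7 at 134, 166, 83.7 and 76.8 CPM, and the Smad6 ratio in sedentary mice was 0.57 on the log2 scale in Y-positive barcodes.

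The matrix genes were less uniform. Of 20 fibrillar and other collagens measured, 5 were higher in running infarct against running and 3 in sedentary infarct against sedentary, and the medians were 0.28 and 0.22. Col1a1, a chain of type I collagen, stood at 280 and 245 CPM in the infarct libraries and at 115 CPM in both others, a ratio of 2.44 (2.11 to 2.82) in running and 2.12 (1.83 to 2.45) in sedentary mice. Col3a1, type III collagen, stood at 1619, 965, 641 and 754 CPM in the order running infarct, sedentary infarct, running, sedentary, and was 2.53-fold higher in running mice, with a ratio of 1.28 in sedentary ones. Col8a1, a short-chain collagen, stood at 1596, 2272, 1200 and 1023 CPM, so it went the other way round, 2.22-fold higher in sedentary mice with a ratio of 1.33 in running ones. Eln, elastin, stood at 747, 283, 125 and 201 CPM, 5.96-fold (5.32 to 6.68) higher in running mice with a ratio of 1.41 (1.24 to 1.59) in sedentary mice. Fbn1, the main protein of microfibrils, stood at 1066, 553, 459 and 619 CPM, 2.32-fold (2.16 to 2.50) higher in running mice with a ratio of 0.893 in sedentary ones. Cdh11, a cadherin of fibroblasts, was 3.05-fold and 1.84-fold higher, and 1.22-fold in sedentary mice without the mesothelial-marker barcodes. Adam12, a metalloprotease, was 0.97 higher on the log2 scale in sedentary mice, and -0.59 without those barcodes. Fap, the serine protease called fibroblast activation protein, stood at 176, 268, 268 and 285 CPM and was 1.53-fold lower in running mice, by 1.34-fold without the mesothelial-marker barcodes.

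**Figure D4:**
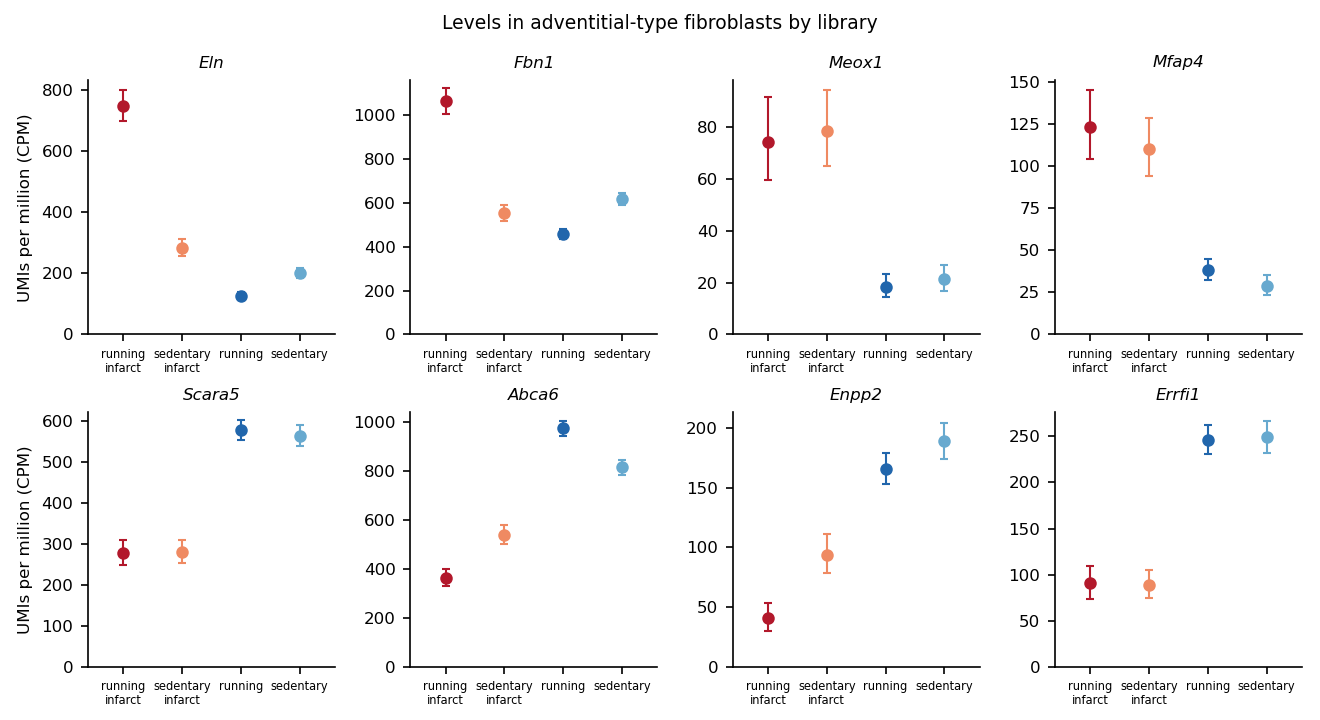
Levels of Eln, Fbn1, Meox1, Mfap4, Scara5, Abca6, Enpp2 and Errfi1 in adventitial-type barcodes in UMIs per 1000000 (CPM), 1 point per library with exact 95% Poisson intervals. Meox1 and Mfap4 lie high and Errfi1 and Scara5, which helped to choose the barcodes, low in both infarct libraries, while Eln and Fbn1 are highest in the running infarct library, at 747 and 1066 CPM.

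Part of the resting programme was lower after infarct. Of the adventitial list outside the rule, 9 of 25 genes were lower and 2 higher in running infarct against running, and 5 of 23 were lower and 0 higher in sedentary infarct against sedentary. The lower shares were 36.0 and 21.7%, beside 7.26 and 5.57% of all genes measured. Without the mesothelial-marker barcodes 10 of 23 and 8 of 23 were lower. Only 2 marker UMIs were found in 16.5% of running infarct, 17.9% of sedentary infarct, 9.09% of running and 9.13% of sedentary barcodes. Over the pooled libraries the summed adventitial list rose with marker UMIs, from 4637 CPM at 2 to 9044 CPM at over 10. The part of marker counts in the lower list was not tested. Errfi1, a feedback inhibitor of the EGF receptor, stood at 90.3, 88.6, 246 and 249 CPM in the running infarct, sedentary infarct, running and sedentary libraries, 2.73-fold (2.23 to 3.36) and 2.81-fold (2.33 to 3.41) lower. Opcml, a cell adhesion protein, stood at 93.7, 110, 342 and 342 CPM, 3.65-fold (3.01 to 4.48) and 3.10-fold (2.63 to 3.68) lower. Both genes split the 4 libraries by infarct with no overlap of their intervals. In sedentary mice Errfi1 was 6.15-fold (3.80 to 10.7) lower in Y-positive and 1.74-fold (1.37 to 2.24) in Y-negative barcodes. Enpp2, which makes lysophosphatidic acid, stood at 40.5, 94, 166 and 189 CPM, 4.09-fold (3.05 to 5.61) and 2.01-fold (1.67 to 2.44) lower. Abca6, a lipid transporter of the ABC family, stood at 363, 539, 973 and 813 CPM, 2.68-fold and 1.51-fold lower, the second being 1.42-fold without the mesothelial-marker barcodes. Interstitial fibroblasts of running infarct against running had log2 ratios of -1.01 for Errfi1, -0.86 for Enpp2 and -0.96 for Abca6, so these genes were lower in both classes there. Il33, an alarmin cytokine, stood at 76, 76.4, 158 and 128 CPM, 2.08-fold (1.67 to 2.63) and 1.68-fold (1.36 to 2.09) lower. Its log2 ratio was -0.44 in running mice with at most 5% mitochondrial UMIs and -0.29 in sedentary mice in Y-positive barcodes. Clec3b, the plasminogen-binding tetranectin, stood at 118, 131, 220 and 203 CPM, 1.86-fold and 1.55-fold lower. In sedentary mice its log2 ratio was under 1.5-fold with at most 5% mitochondrial UMIs (-0.49), in Y-positive barcodes (-0.19), with at least 3 marker UMIs (-0.52) and without the mesothelial-marker barcodes (-0.58).

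Has2, Ret and Fgf10 each had their lowest level in the sedentary infarct library. Has2 stood at 52.3, 33.8, 66.0 and 81.0 CPM in the running infarct, sedentary infarct, running and sedentary libraries, 2.40-fold (1.77 to 3.31) lower in sedentary mice and with a ratio of 0.793 (0.590 to 1.05) in running mice. Ret, the receptor of the GDNF family, stood at 48.1, 20.3, 71.1 and 122 CPM, 6.02-fold (4.15 to 9.05) lower in sedentary mice with a ratio of 0.677 (0.499 to 0.904) in running mice. Fgf10, a fibroblast growth factor for epithelium and fat, stood at 47.3, 29.7, 63.1 and 85.9 CPM, 2.89-fold (2.10 to 4.06) lower in sedentary mice with a ratio of 0.749 (0.550 to 1.01) in running mice. The sedentary infarct to sedentary difference was larger in Y-positive barcodes for Has2, 10.0-fold (3.35 to 49.2) lower with 3 UMIs in the sedentary infarct library, against 1.91-fold (1.31 to 2.83) in Y-negative ones. Fgf10 was 3.24-fold (1.81 to 6.40) lower in Y-positive barcodes, and in Y-negative ones, with 21 and 49 UMIs in the sedentary infarct and sedentary libraries, 1.69-fold (0.993 to 2.96). The sedentary library held the highest level of all 3 genes, and whether the infarct ratio differed between running and sedentary mice was not tested. Efemp1 stood near even, at 214, 147, 242 and 195 CPM, but without the mesothelial-marker barcodes it was 3.95-fold and 3.10-fold lower with infarct. The immediate early genes, switched on within minutes by stimulation, were lower for 6 of 12 in running and 4 of 11 in sedentary mice, among them the nuclear receptor Nr4a1, at 14.3, 14.9, 81.3 and 49.7 CPM. The median of that list in running mice was -0.61 over 12 genes, and with at most 5% mitochondrial UMIs only 2 of them could be measured. Nppa, a cardiomyocyte hormone gene, stood at 68.4, 142, 20.3 and 9.44 CPM here, but also at 94.7, 163, 16.9 and 6.54 CPM in endothelial and 117, 191, 78.0 and 9.44 CPM in macrophage barcodes, so it did not stand above other cell types.

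The further lists differed in how many genes passed 1.5-fold, beside 5.91% higher and 7.26% lower of all genes in running infarct against running, and 4.45% and 5.57% in sedentary infarct against sedentary. In running mice the shares above those of all genes included matrix proteases and their inhibitors, 30.0% higher and 20.0% lower, elastic fibre genes, 29.4% higher, Wnt genes, 30.8% higher, and glucocorticoid response genes, 44.4% lower. These shares rest on 9 to 20 genes each and stand as descriptions. TGF-beta and BMP genes had 2 higher and 4 lower of 24 in running and 3 higher and 0 lower of 23 in sedentary mice, and Wnt genes 4 higher and 1 lower of 13, and 3 higher and 0 lower of 13. Complement, chemokine and cytokine genes had 1 higher and 4 lower of 18, and 2 higher and 2 lower of 14, while growth factors and their receptors had 1 higher and 3 lower of 26, and 2 higher and 4 lower of 26. Matrix proteases and their inhibitors had 6 higher and 4 lower of 20 in running mice and 2 higher and 2 lower of 20 in sedentary mice. Elastic fibre and crosslinking genes had 5 higher and 1 lower of 17, and 2 higher and 2 lower of 17. Hyaluronan and hexosamine genes had 1 higher and 2 lower of 12 in each, iron handling genes 2 higher and 2 lower of 10, and 1 higher and 0 lower of 10, and retinoid genes 2 higher and 1 lower of 8, and 2 higher and 1 lower of 9. Glucocorticoid response genes had 0 higher and 4 lower of 9, and 0 higher and 2 lower of 9, interstitial and basement membrane genes 1 higher and 5 lower of 21, and 1 higher and 5 lower of 20, and general fibroblast genes 3 higher and 4 lower of 15, and 4 higher and 1 lower of 15. The largest of these medians, for the elastic fibre list in running mice, was 0.48 on the log2 scale.

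The infarct comparisons of running and sedentary mice share no library. Of 7691 genes measured in both, 430 were higher in running and 337 in sedentary mice and 168 in both, which is 39.1% of the first and 49.9% of the second. Of those lower, 131 were shared, 25.2% of 520 in running and 31.6% of 415 in sedentary mice, and 23 genes were called in opposite directions. These percentages stand beside 5.91% higher and 7.26% lower of all genes measured in running mice, and 4.45 and 5.57% in sedentary mice. Without the mesothelial-marker barcodes 90 higher genes were shared, 27.5 and 34.7%, and 101 lower ones, 21.6 and 25.3%.

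Between the infarct libraries, Eln, Fbn1, Ugdh and Klf4 were higher and Bmp4 and Gsn lower in adventitial-type barcodes of the running mice. Of 5666 genes, 3.90% were higher and 3.25% lower in running infarct than in sedentary infarct, and 3.11 and 3.23% without the mesothelial-marker barcodes. Eln, at 747 against 283 CPM, was 2.64-fold higher (2.35 to 2.97), and 2.36-fold in interstitial fibroblasts. Its log2 ratio was 1.40, and 0.70 in Y-positive barcodes. Fbn1, at 1066 against 553 CPM, was 1.93-fold higher (1.76 to 2.11), against a ratio of 1.45 in interstitial fibroblasts. Ugdh, at 226 against 113 CPM, was 2.00-fold higher (1.65 to 2.45), while interstitial fibroblasts had a ratio of 0.656 (0.371 to 1.11), and with at least 3 marker UMIs the log2 ratio was 0.52. Klf4, a zinc-finger transcription factor, had 125 against 57 CPM and was 2.20-fold higher (1.67 to 2.91), with an interstitial ratio of 0.745 (0.288 to 1.72). The gap between cell classes was not tested for either gene. Bmp4, a bone morphogenetic protein, had 45 against 121 CPM, 2.70-fold lower (1.98 to 3.75), and 2.29-fold lower in interstitial fibroblasts. Gsn, the actin-severing gelsolin, had 896 against 1509 CPM 1.68-fold lower (1.57 to 1.81), while the log2 ratio was -0.52 with no activation clause and -0.54 in Y-negative barcodes. C3, the central complement component, was 1.98-fold and Igfbp5, an IGF-binding protein, 1.73-fold higher, but 1.44-fold and 1.06-fold without the mesothelial-marker barcodes. Of the adventitial list 3 of 20 genes were higher and 1 lower (15.0 and 5.0%), and of the activation list 3 of 18 were higher and 1 lower (16.7 and 5.56%). These shares stand beside 3.90% higher and 3.25% lower of all genes and rest on few genes.

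Without infarct, running against sedentary, 2.32% of 9267 genes were higher and 1.76% lower, and 2.23 and 1.58% without the mesothelial-marker barcodes. Most heat shock genes were on the lower side. Of 14 heat shock genes measured, chaperones that fold or rescue proteins and their co-factors, 13 were lower and 0 higher, with a median log2 ratio of -0.99. The list summed to 1049 CPM in the running and 2069 CPM in the sedentary library, and to 801 and 800 CPM in the running infarct and sedentary infarct libraries. Hsph1 (ENSMUSG00000029657), a co-chaperone of the Hsp70 family, stood at 46.4, 56.1, 49.2 and 160 CPM in the running infarct, sedentary infarct, running and sedentary libraries, 3.25-fold lower (2.74 to 3.86) in running than in sedentary. Hsp90aa1, the inducible Hsp90, stood at 50.6, 48.0, 63.6 and 151 CPM, 2.37-fold lower (2.03 to 2.78). Dnaja1, an Hsp40 co-chaperone, stood at 86, 95, 138 and 283 CPM, 2.05-fold lower (1.84 to 2.29), and Hspb1, a small heat shock protein, at 25, 21, 24 and 69 CPM, 2.91-fold lower (2.27 to 3.77). In each gene the sedentary library stood alone above the other 3. The interstitial fibroblasts had the same pattern, with list sums of 760, 788, 1043 and 2130 CPM and 12 of 14 genes lower, as had sedentary infarct against sedentary, where 13 of 14 were lower in adventitial-type barcodes, with a median of -1.51, and -0.90 in Y-negative barcodes.

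The heat shock difference lay mostly in Y-positive nuclei. In Y-positive adventitial-type barcodes the list summed to 870 CPM in the running and 2539 CPM in the sedentary library, and 13 of 13 genes were lower with a median of -1.50. In Y-negative barcodes it summed to 1236 and 1539 CPM, 2 of 13 genes were lower and the median was -0.23. Hsph1 stood at 24.5 against 219 CPM in Y-positive barcodes, 8.95-fold lower (6.34 to 13), and at 75.9 against 88.0 CPM in Y-negative ones, a ratio of 0.863 (0.668 to 1.11). Stip1, which links Hsp70 to Hsp90, stood at 29.1 against 146 and at 66.2 against 70.4 CPM. P4ha1, a collagen prolyl hydroxylase outside the list, followed them with 216 against 635 and 275 against 331 CPM. As each of these libraries pools 2 hearts of both sexes, the split by Y-linked UMIs also splits its hearts. Sex and heart cannot be told apart there, and a difference between individual animals was not tested.

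Heat shock factors bind inverted repeats of GAA. The 250 bases before 1 start of each of 4 of these genes are shown, from RefSeq on GRCm38.p6, because their RNA differed together and these windows hold 8-letter matches to GAANNTTC or TTCNNGAA, in capitals, read on both strands, with overlapping matches run together. Each window was picked for its match, and of the 3 windows of Dnaja1 only 1 holds either motif. Dnaja1 lies at chr4:40722218-40722467 on the plus strand, Hspb1 at chr5:135887669-135887918 on the plus strand, Hspe1 at chr1:55087898-55088147 on the plus strand and Hsph1 at chr5:149636337-149636586 on the minus strand.
Dnaja1: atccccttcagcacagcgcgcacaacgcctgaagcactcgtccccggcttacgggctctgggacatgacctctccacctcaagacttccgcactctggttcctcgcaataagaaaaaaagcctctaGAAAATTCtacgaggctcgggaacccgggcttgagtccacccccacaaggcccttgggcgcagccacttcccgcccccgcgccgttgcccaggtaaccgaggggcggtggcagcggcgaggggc
Hspb1: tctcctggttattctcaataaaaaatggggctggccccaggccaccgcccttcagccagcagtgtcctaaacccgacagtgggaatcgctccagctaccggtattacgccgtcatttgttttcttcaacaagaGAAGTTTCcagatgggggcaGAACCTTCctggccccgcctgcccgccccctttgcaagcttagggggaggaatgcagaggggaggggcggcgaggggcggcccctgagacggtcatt
Hspe1: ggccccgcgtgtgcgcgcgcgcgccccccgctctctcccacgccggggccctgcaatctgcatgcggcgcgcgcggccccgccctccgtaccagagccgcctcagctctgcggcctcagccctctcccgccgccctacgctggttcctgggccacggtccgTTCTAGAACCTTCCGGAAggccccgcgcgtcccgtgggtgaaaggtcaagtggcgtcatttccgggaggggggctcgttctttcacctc
Hsph1: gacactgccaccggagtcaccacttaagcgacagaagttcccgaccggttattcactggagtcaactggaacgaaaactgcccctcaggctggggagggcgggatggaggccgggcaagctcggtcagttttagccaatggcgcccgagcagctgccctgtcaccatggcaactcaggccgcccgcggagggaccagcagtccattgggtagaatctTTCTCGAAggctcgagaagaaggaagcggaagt
The list of 17 heat shock genes had 14 in the promoter table with 20 windows, as some genes have several starts, and 9 of these windows (45.0%), of 8 genes, held a match to either motif. Of all 32851 windows, 12.8% held either, 6.69% GAANNTTC and 7.17% TTCNNGAA. A match is a description of the letters and not a measured binding site. Hspe1, the mitochondrial Hsp10, whose window holds overlapping matches, stood at 35, 19, 30 and 65 CPM in the running infarct, sedentary infarct, running and sedentary libraries and was 2.19-fold lower (1.73 to 2.77) in running than in sedentary.

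Several clock genes differed between the 4 libraries, some of them mostly in Y-positive barcodes. Arntl (Bmal1), the activating partner of Clock, stood at 83.6, 35.2, 13.1 and 52.7 CPM in the running infarct, sedentary infarct, running and sedentary libraries. Npas2, which can replace Clock, stood at 101, 34.5, 18.2 and 50.3 CPM, while Nr1d1 (Rev-erb alpha), which represses Arntl, stood at 55.7, 128, 101 and 32.3 CPM. Dbp, an output factor of the clock, stood at 45.6, 102, 111 and 50.9 CPM. Over all adventitial-type barcodes the running infarct and sedentary libraries thus had the higher Arntl and Npas2 and the lower Nr1d1 and Dbp. Per1, a repressor of the clock, did not pair this way, at 36.3, 68.9, 111 and 97.8 CPM. Nor did every gene in Y-negative barcodes, where Arntl stood at 89.0, 43.8, 7.90 and 29.6 CPM, with a sedentary infarct to sedentary ratio of 1.48 (0.952 to 2.31), and Dbp at 35.9, 91.5, 106 and 84.5 CPM, while Nr1d1 kept the order at 65.6, 121, 105 and 47.2 CPM. In Y-positive barcodes Arntl stood at 89.8, 19.3, 14.6 and 72.8 CPM. Of the clock list in running against sedentary, 3 of 17 genes were higher and 2 lower over all barcodes, 7 of 16 higher and 2 lower in Y-positive and 1 of 14 higher and 0 lower in Y-negative ones. In running against sedentary, Arntl was 4.02-fold lower (2.92 to 5.65), Npas2 2.77-fold lower (2.07 to 3.72) and Nr1d1 3.12-fold higher (2.51 to 3.91). In running infarct against running, Arntl was 6.38-fold higher (4.49 to 9.18) and Nr1d1 1.81-fold lower (1.39 to 2.39). Running infarct against sedentary infarct, Arntl was 2.38-fold higher (1.68 to 3.39) and Nr1d1 2.31-fold lower (1.73 to 3.10), and 8 of 15 clock genes were lower and 2 higher, with a median of -0.66, and -0.53 over 14 genes in Y-negative barcodes. Interstitial fibroblasts had log2 ratios of 1.84 for Arntl (20 and 12 UMIs), 1.65 for Npas2 (22 and 15), -1.54 for Nr1d1 and -1.08 for Dbp. In activated fibroblasts Arntl stood at 169 against 60.7 and Nr1d1 at 33.3 against 98.4 CPM. Between the infarct libraries these differences were thus not particular to adventitial-type barcodes. Dbp was 2.19-fold higher in running against sedentary, but 5.61-fold (3.75 to 8.68) in Y-positive and 1.26-fold (0.992 to 1.60) in Y-negative barcodes. The hour at which the hearts were taken is not given in the sources used here, so its part was not tested.

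**Figure D5:**
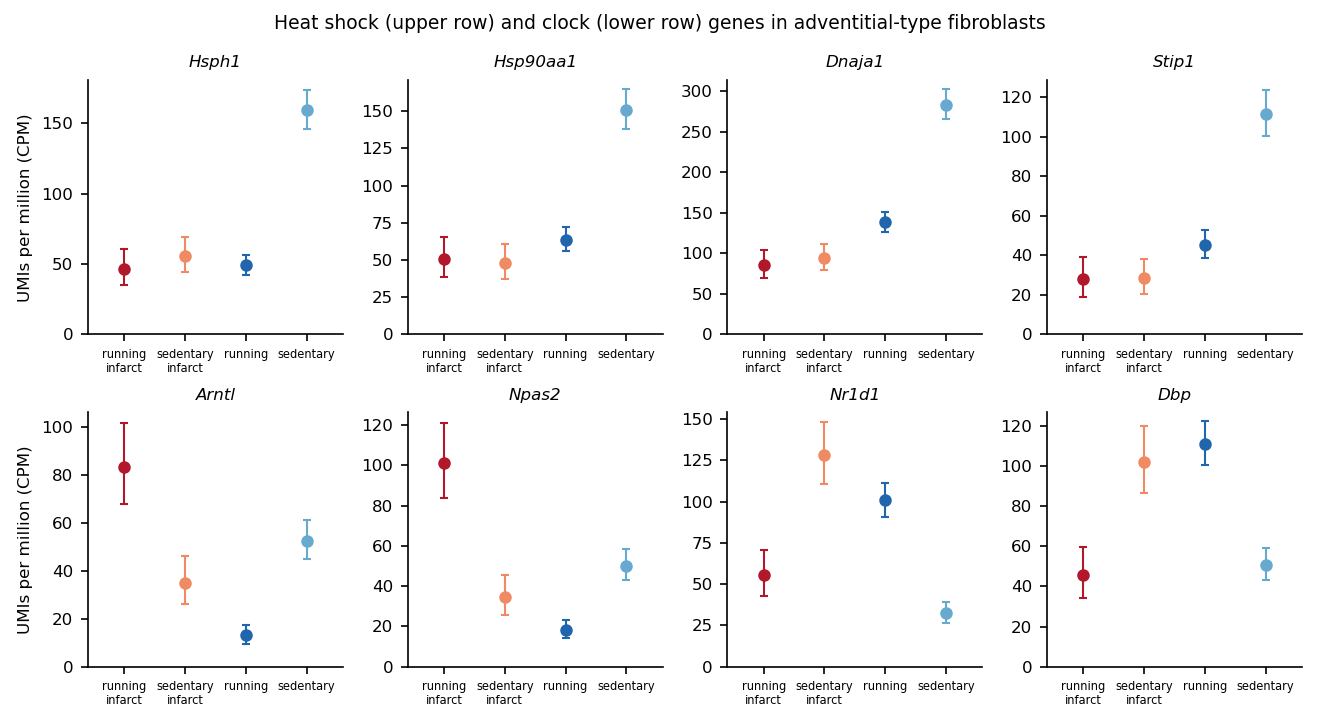
Levels in adventitial-type barcodes in UMIs per 1000000 (CPM), 1 point per library with exact 95% Poisson intervals, for the heat shock genes Hsph1, Hsp90aa1, Dnaja1 and Stip1 in the upper row and the clock genes Arntl, Npas2, Nr1d1 and Dbp in the lower row. In the upper row the sedentary library stands above the other 3, for example at 160 CPM for Hsph1, and in the lower row Arntl and Npas2 are highest and Dbp lowest in the running infarct library, over all adventitial-type barcodes.

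Other genes differed between running and sedentary hearts without infarct. Nkain2, a partner of the sodium pump, stood at 354 against 146 CPM and was 2.43-fold higher (2.19 to 2.70), while interstitial fibroblasts had a ratio of 1.04 (0.928 to 1.17). Gpr39, a zinc-sensing receptor, stood at 139 against 53.9 CPM, 2.58-fold higher (2.17 to 3.07), and 2.17-fold in interstitial fibroblasts. Junb, an immediate early factor, stood at 97.6 against 43.9 CPM, 2.22-fold higher (1.83 to 2.72). Egr1, of the same kind, had a log2 ratio of 1.05, and of -0.58 with at most 5% mitochondrial UMIs. Eln was 1.60-fold lower (1.42 to 1.81), with a log2 ratio of -0.31 in Y-negative barcodes, -0.40 with at most 5% mitochondrial UMIs and -0.56 with at least 3 marker UMIs. Of the adventitial list, 5 of 25 were higher and 0 lower, and 2 were higher without the mesothelial-marker barcodes. The haemoglobin gene Hba-a1 stood at 87.9 against 27.1 CPM, with 203 against 41.0 CPM in endothelial barcodes of the same libraries, so it did not stand above them.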

How the data were processed

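Each library was deposited by the authors as raw UMI counts per gene and barcode, made from sorted nuclei with a 10x Genomics 3' kit per the labels' protocols. Cell Ranger 7.1 and GRCm39 are named in the submitters' processing notes, and no cell annotation was used. The matrices hold 25906 genes, 37 of them mitochondrially encoded and left out of CPM totals. Levels carry Poisson, ratios conditional binomial and shares Clopper-Pearson intervals, all exact and at 95%, except that share ratios use the log scale. No test was run. The members and the 18 gene lists were chosen with earlier results of these data known. Besides list genes, the text could name the 10 higher and 10 lower genes per comparison that stood farthest from even by their nearer bound. Genes were not eligible when their CPM in cardiomyocyte, endothelial or macrophage barcodes was over 5 times that in adventitial-type barcodes of either library. Genes with over 50% of UMIs in 10 barcodes were not eligible either. On simulated Poisson counts the intervals held the true ratio in 95.45, 95.75, 95.62 and 95.51% of 5675, 8064, 7869 and 9258 genes, for running infarct against sedentary infarct, running infarct against running, sedentary infarct against sedentary and running against sedentary. These counts had no spread between hearts or barcodes, so shares near 95% follow from the draw. They check the computation only and not how well the intervals cover real data. Scrublet's automatic threshold called 1640, 0, 0 and 0 doublets in the running infarct, sedentary infarct, running and sedentary libraries and was not used. An alternative removed the 194, 84, 313 and 232 highest scores, among them 5, 6, 12 and 11 adventitial-type barcodes. Other alternatives changed the limits on genes, mitochondrial, marker and activation UMIs, the depth, the scaling, the gene minimum and the Y-linked split. Leaving out barcodes with mesothelial or other markers, and using barcodes with 0 activation UMIs, were chosen after seeing the data. Python 3.11.15, numpy 2.4.6, scipy 1.17.1, pandas 2.3.3, scanpy 1.11.5, anndata 0.12.19 and matplotlib 3.10.9 were used.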

Additional observations from a re-analysis of the deposited data

Results flagged for a closer look

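Of the 23 genes called in opposite directions by infarct in running and in sedentary mice, 5 are among the genes eligible for the text, and the difference between the mice was not tested. Nr1d1 had a log2 infarct ratio of -0.86 in running and 1.99 in sedentary mice, a difference of -2.85, and the ratio in sedentary mice was 3.18 in Y-positive barcodes, with 40 and 19 UMIs in the sedentary infarct and sedentary libraries, and 1.36 in Y-negative ones. Dbp had -1.29 and 1.00, a difference of -2.29, and Bhlhe41, a clock repressor, -0.98 and 0.84, a difference of -1.81. In sedentary mice the Dbp ratio was 7.05-fold (4.32 to 11.7) in Y-positive and 1.08-fold (0.819 to 1.43) in Y-negative barcodes, and the Bhlhe41 ratio 2.86-fold (1.59 to 5.06) and 1.16-fold (0.844 to 1.58), so neither reached 1.5-fold in Y-negative barcodes. The Y-positive ratios rest on 46 and 28 UMIs of Dbp and 22 and 33 of Bhlhe41 in the sedentary infarct and sedentary libraries. These are clock genes, and the levels of Bhlhe41 were 35, 78, 70 and 44 CPM in the running infarct, sedentary infarct, running and sedentary libraries. Inmt, which methylates indoles and thioethers, had -1.53 and 0.59, a difference of -2.12, with levels of 29.5, 66.9, 85.3 and 44.5 CPM. Among Y-positive barcodes of sedentary mice its log2 ratio was -0.34, and -0.030 among Y-negative ones. Bmp4 had -0.63 and 0.88, a difference of -1.51, with levels of 45, 121, 69 and 66 CPM, and in running mice its log2 ratio was -0.51 with at least 3 marker UMIs, -0.36 without the mesothelial-marker barcodes and -0.15 in Y-negative barcodes.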

How the results depend on the processing

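Of 240 recomputed gene counts 71 moved by over 1.5 times, of 40 shares 9 moved beyond their interval, and of 2130 list medians and 7646 single gene ratios 2 and 36 turned direction, the 2 medians resting on only 1 and 2 genes. Counts stayed within 1.5 times with at least 800 genes, doublets removed, at least 3 marker UMIs, mitochondrial genes in the denominator, every barcode weighed the same, median-of-ratios size factors and without mesothelial-marker barcodes. No paired analysis was possible because each group is 1 library. No replicate could be left out for the same reason. The causes of the moves below were not tested, except that thinning and fewer barcodes leave fewer UMIs and a lower gene minimum admits more genes. The depth limits statements to genes with at least 100 UMIs over both libraries, which few genes reach in 254 running infarct barcodes or 80 interstitial ones.

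The ratio of member shares moved to 0.797 (running infarct over running) and 0.695 (running over sedentary) with at most 5% mitochondrial UMIs, to 0.916 (running infarct over running) and 0.927 (sedentary infarct over sedentary) with no activation clause, and to 0.690 (sedentary infarct over sedentary) and 1.04 (running over sedentary) after thinning. In running over sedentary it was 1.02 for Y-negative barcodes and 0.882 for Y-positive ones, and without barcodes carrying markers of other cell types it was 0.502 in running infarct over running.

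The counts of genes higher and lower are given as pairs for running infarct against sedentary infarct, running infarct against running, sedentary infarct against sedentary and running against sedentary, and then for adventitial-type against interstitial fibroblasts in the running infarct, sedentary infarct, running and sedentary libraries. After thinning to 1000 UMIs they were 10 and 8, 75 and 120, 34 and 55, 27 and 35, then 7 and 8, 9 and 12, 95 and 71, 64 and 52. With at least 50 UMIs they were 447 and 443, 766 and 996, 646 and 799, 438 and 298, then 725 and 450, 627 and 375, 708 and 429, 694 and 425. With at least 10 UMIs they were 1392 and 1408, 1703 and 2143, 1649 and 1790, 1296 and 973, then 2353 and 1568, 1936 and 1209, 1685 and 1140, 1680 and 1186. In Y-negative barcodes 141 were higher in running infarct against sedentary infarct, 270 higher and 359 lower in running infarct against running, and 108 lower in running against sedentary. In Y-positive barcodes 136 were higher and 96 lower in running infarct against sedentary infarct, and against interstitial fibroblasts 143 and 97 in the running infarct and 80 and 91 in the sedentary infarct library, with 275 higher in the running library. With at most 5% mitochondrial UMIs 303 were higher and 189 lower in running infarct against running, 293 lower in sedentary infarct against sedentary, 450 lower in running against sedentary, and 86 higher and 69 lower against interstitial fibroblasts in the running library. With no activation clause 458 were higher than in interstitial fibroblasts in the running infarct library, and 430 higher and 294 lower in the sedentary infarct library. Without barcodes carrying other markers 132 were higher in running infarct against sedentary infarct, 309 in running infarct against running and 176 against interstitial fibroblasts in the running infarct library.

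The direction turned for these log2 ratios. Against interstitial fibroblasts in the running infarct library Adgrd1 was -0.59 in Y-negative barcodes, Bmper 0.031 and Col14a1 -0.38 in Y-positive barcodes, Opcml -0.25 with no activation clause, and Fn1 0.50 and Timp2 -0.68 after thinning. In the sedentary library, thinned, Denn2b was 0.010 and Igfbp5 -1.18. Without barcodes carrying other markers Igfbp5 was -0.026, -0.23 and -0.52 in the running infarct, running and sedentary libraries, Dpp4 -0.44 and -0.41 in the running infarct and sedentary infarct libraries, and Efemp1 -1.04 in the running infarct library. Without mesothelial-marker barcodes the same values were -0.13, -0.21 and -0.44, -0.27 and -0.57, and -1.20. In running against sedentary, Col5a3 was 0.48 and Ret 0.048 in Y-negative barcodes and Egr1 -0.58 with at most 5% mitochondrial UMIs. In sedentary infarct against sedentary, Inmt was -0.030 in Y-negative barcodes, -0.34 in Y-positive ones and -0.079 with no activation clause, Tnfaip6 0.48 in Y-positive barcodes, Chordc1 0.0031 after thinning and Adam12 -0.59 without mesothelial-marker barcodes. In running infarct against sedentary infarct, Inmt was 0.13 in Y-positive barcodes, and after thinning the clock list was 0.13 in the 1 gene of it still measured, C3 -0.28 and Pcolce2 0.061. In running infarct against running, the immediate early list was 0.093 in the 2 genes of it still measured, Hspa4l 0.25 and Stip1 0.083 with at most 5% mitochondrial UMIs, and Cdh11 -2.05 and Clec3b 0.025 after thinning.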
